A study of Mus musculus with 4 samples.

Results

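The genes described here encode the nuclear subunits of the 5 complexes of oxidative phosphorylation, together with a few factors that share their symbols. Members were all rows whose gene symbol begins with Nduf (complex I), is Sdha, Sdhb, Sdhc or Sdhd (complex II), begins with Uqcr (complex III), begins with Cox4i, Cox5, Cox6, Cox7 or Cox8 (complex IV), or begins with Atp5 (complex V). This gave 91 genes of 13104 in all, with 47 in complex I, 4 in complex II, 8 in complex III, 14 in complex IV and 18 in complex V. Of the 91, 81 encode subunits (Cox7a2l, a factor that joins complexes, included), 8 are assembly factors of complex I (Ndufaf genes), 1 is a pseudogene (Ndufs5-ps) and 1 is Dmac2l, a complex V factor formerly called Atp5s. Another 7 coding genes that fit these symbols (Cox4i2, Cox6b2, Cox7b2, Cox8c, Ndufb1, Ndufb4b and Ndufb4c) had no row in the tables used and were not analysed here.

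Complexes I and II pass electrons from NADH and succinate to ubiquinone, complex III passes them on to cytochrome c, and complex IV, cytochrome c oxidase, delivers them to oxygen. Complexes I, III and IV pump protons out of the mitochondrial matrix, and complex V, the ATP synthase, uses their return to make ATP. Most subunits are encoded in the nucleus, a core set is encoded by mitochondrial DNA, and mitochondria multiply when preadipocytes become fat cells. Several complex IV subunits exist in a widespread form and in a form best known from heart, skeletal muscle and brown fat.

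RNA was sequenced from 4 stable lines of 3T3-L1, a mouse preadipocyte line, to ask what CACUL1, a protein with a cullin domain that binds the kinase CDK2, does during adipogenesis. FLAG cells carried the empty FLAG vector, FLAG-CACUL1 cells overexpressed CACUL1, sh-Luc cells expressed a hairpin against luciferase and sh-CACUL1 cells a hairpin against CACUL1. All 4 lines were taken to confluence and induced with rosiglitazone (5 μM), IBMX (0.5 mM), insulin (5 μg/ml) and dexamethasone (1 μg/ml) in 10% serum. From day 2, medium with 10% serum and insulin (5 μg/ml) was given every 2 days. Cells were harvested after 8 days of differentiation. The FLAG and hairpin vectors were selected with different drugs, each line was 1 stable population, and each was represented by 1 sample, so no difference below has a replicate check or a test.

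Values listed without sample names follow the order FLAG, FLAG-CACUL1, then sh-Luc, then sh-CACUL1. They are FPKM, fragments normalised to transcript length and to sequencing depth, and a fold change is the difference of log2(FPKM + 1). A member is said to have risen or fallen when that difference was 2-fold or more. Estimated depth was 15100000 to 15700000 fragments in FLAG, FLAG-CACUL1 and sh-CACUL1 and 25100000 in sh-Luc. Cacul1 itself was at 9.61 and 11.8 FPKM in FLAG and FLAG-CACUL1 and 10.2 and 5.39 FPKM in sh-Luc and sh-CACUL1, so the labelled knockdown was visible (log2 fold change -0.82), whereas the overexpressing line was close to its control in this RNA (0.27). The paper reports FLAG-CACUL1 protein in its stable cells by western blot. Whether the Cacul1 row counts RNA made from the vector was not tested. The label calls the cells preadipocytes. However, all 10 adipocyte markers examined (such as Adipoq, Fabp4 and Plin1) had rows, and their summed level was 8479 and 883.5 FPKM in FLAG and FLAG-CACUL1 and 1689 and 17640 FPKM in sh-Luc and sh-CACUL1. Fabp4 alone was at 4991, 320, 1020 and 12543 FPKM. Single markers did not all follow the sum between FLAG and sh-CACUL1. Plin1, Lpl, Pparg, Cebpa and Slc2a4 were lower in sh-CACUL1 than in FLAG, and Adipoq, Fabp4, Cidec, Cfd and Retn were higher. The summed level of the 7 measured of 8 preadipocyte and fibroblast markers was 4854, 6993, 3148 and 632.3 FPKM, most of it from Col1a1 and Col3a1. Single markers differed in direction, with 6 of 7 higher in FLAG-CACUL1 (4 risen, Dlk1 fallen) and 2 of 7 higher in sh-CACUL1 (Dlk1 and Thy1 risen, 4 fallen). Among brown or beige fat markers, 2 of 9 (Cpt1b and Otop1) had rows and together did not exceed 1.42 FPKM in any sample, and Ucp1 and Cidea were not analysed here. Of the macrophage markers, 3 of 5 had rows, summing to 31.9, 44.0, 4.10 and 4.69 FPKM, with no row for Ptprc and Adgre1. In FLAG-CACUL1, Cd14 rose (1.43) and Cd68 fell (-2.82). Of the endothelial and skeletal muscle markers, Pecam1 and Acta1 alone had rows, at no more than 0.301 and 0.679 FPKM.

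Promoters of 6 members are shown because their genes carry the results below. Cox7a1 and Cox8b had the largest differences in both comparisons, Cox7a2 and Cox8a are their widespread counterparts, Cox6a1 was among the complex IV members that fell in FLAG-CACUL1, and Atp5g3 encodes the c subunit of the ATP synthase and had the largest rise of complex V in sh-CACUL1. Each line gives the 180 bases before the RefSeq start of the gene on its own strand (GRCm38.p6), and capitals mark a match, on either strand, to the palindromic site of nuclear respiratory factor NRF1, spelled out by the capitals of the Cox6a1 line, or to TGACCTTGA, the site of estrogen-related receptors (ERR).
Cox7a1: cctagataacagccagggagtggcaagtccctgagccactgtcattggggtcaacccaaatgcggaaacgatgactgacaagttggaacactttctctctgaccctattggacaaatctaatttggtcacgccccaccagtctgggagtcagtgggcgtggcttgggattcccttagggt
Cox7a2: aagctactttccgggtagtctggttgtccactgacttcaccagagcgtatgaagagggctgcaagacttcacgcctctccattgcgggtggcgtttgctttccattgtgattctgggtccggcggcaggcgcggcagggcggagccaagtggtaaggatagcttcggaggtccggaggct
Cox8b: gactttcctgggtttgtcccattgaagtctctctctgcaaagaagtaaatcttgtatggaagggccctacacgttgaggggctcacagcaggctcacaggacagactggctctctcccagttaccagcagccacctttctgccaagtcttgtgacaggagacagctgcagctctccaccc
Cox8a: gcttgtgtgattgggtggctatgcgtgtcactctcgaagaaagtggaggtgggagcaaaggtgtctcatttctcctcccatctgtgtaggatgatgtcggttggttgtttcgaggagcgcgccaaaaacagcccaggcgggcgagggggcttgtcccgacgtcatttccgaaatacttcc
Cox6a1: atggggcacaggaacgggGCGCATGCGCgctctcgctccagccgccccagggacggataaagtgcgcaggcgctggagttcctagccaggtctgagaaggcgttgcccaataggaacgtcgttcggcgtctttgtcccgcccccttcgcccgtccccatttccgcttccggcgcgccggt
Atp5g3: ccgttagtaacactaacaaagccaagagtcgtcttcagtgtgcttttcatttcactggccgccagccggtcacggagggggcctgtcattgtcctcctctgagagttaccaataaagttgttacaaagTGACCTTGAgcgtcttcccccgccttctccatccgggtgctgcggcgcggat
These stretches lie at chr7:30183991-30184170 (Cox7a1, plus strand), chr9:79759854-79760033 (Cox7a2, minus strand), chr7:140900447-140900626 (Cox8b, minus strand), chr19:7217617-7217796 (Cox8a, minus strand), chr5:115348959-115349138 (Cox6a1, minus strand) and chr2:73911327-73911506 (Atp5g3, minus strand). The starts used for Cox7a2 and Atp5g3 lie inside the annotated span of the gene, which also has starts further upstream.

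In windows from 250 bases before to 50 after the start, which were available for 75 members, 7 genes (9.33%) held the NRF1 letters, namely Ndufaf4, Ndufaf5, Ndufa11, Uqcrc1, Cox6a1, Atp5g2 and Atp5k. The same letters were in 2.25% of the 10394 genes of these tables that had a window and in 1.07% of all 27025 genes with one. The ERR letters were in 2 members (2.67%), Atp5g3 with the match beginning 52 bases before the start and Sdhd at 36 bases after it, against 0.298% and 0.466%. The lines above show that the Cox6a1 stretch holds 1 NRF1 match and the Atp5g3 stretch 1 ERR match, and that neither sequence occurs in the stretches of Cox7a1, Cox7a2, Cox8b or Cox8a. Of the 9 members with a match, Atp5g3, Atp5k, Sdhd and Ndufaf4 rose in sh-CACUL1 and Cox6a1 and Uqcrc1 fell in FLAG-CACUL1. Of all 91 members, 31 rose in sh-CACUL1 and 9 fell in FLAG-CACUL1, beside 4.95% and 7.22% of all genes. A link between matches and changes was not tested. A match describes the letters only and was not tested as a binding site.

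The members were highly expressed. In all, 89 of 91 had at least 1 FPKM in every sample, the exceptions being Cox6a2 and Ndufa4l2, compared with 9563 of all genes. A mean level of at least 50 FPKM was reached by 74 members and by 1387 genes in all. The highest means belonged to Cox8a (917 FPKM), a small subunit at the edge of complex IV, to Cox6a1 (840 FPKM), and to Atp5b (683 FPKM), the catalytic beta subunit of the ATP synthase. Median levels over the 91 members were 122.2 and 104.1 FPKM in FLAG and FLAG-CACUL1 and 105.3 and 198 FPKM in sh-Luc and sh-CACUL1. The members together made up 3.60% and 2.91% of all FPKM in FLAG and FLAG-CACUL1 and 3.57% and 7.24% in sh-Luc and sh-CACUL1. In RNA from whole cultures, a different share of adipocytes and a different amount of RNA per cell cannot be told apart.

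**Figure D1:**
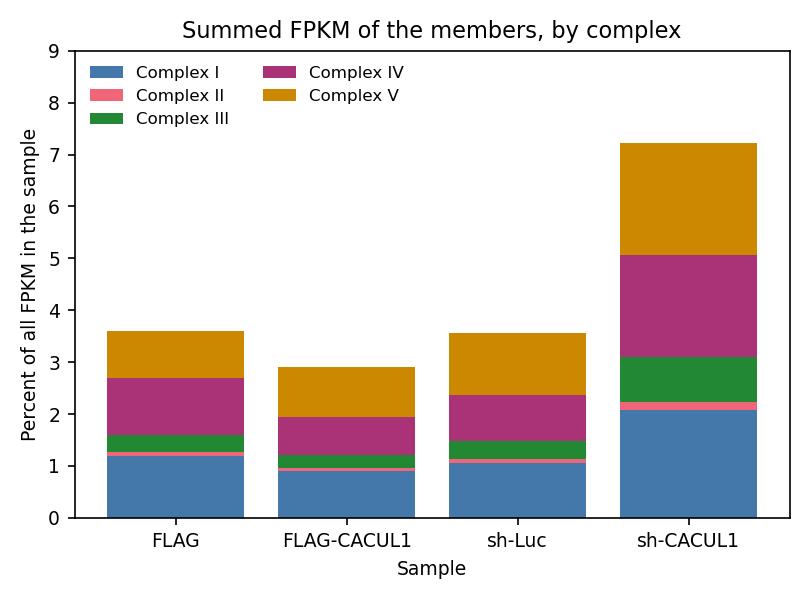
Bars give the summed FPKM of the 91 members as a percent of all FPKM in each sample, stacked by respiratory complex. The sh-CACUL1 bar reaches 7.24% and the other 3 samples lie between 2.91% and 3.60%.

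The sh-CACUL1 sample held the highest level of the 4 samples for 74 of the 91 members, compared with 18.8% of all genes and 22.5% of genes with a mean of at least 50 FPKM. FLAG was highest for 10 members (background 22.3%), sh-Luc for 7 (background 37%) and FLAG-CACUL1 for 0 (background 21.9%). The lowest level was in FLAG-CACUL1 for 42 members (background 16.7%), in FLAG for 24 (30.4%), in sh-Luc for 23 (11.3%) and in sh-CACUL1 for 2 (41.6%), Cox6a2 and Ndufs8. All 8 complex III and all 4 complex II members were highest in sh-CACUL1, as were 10 of 14 in complex IV, 16 of 18 in complex V and 36 of 47 in complex I. The samples stood in no common order below sh-CACUL1, since complex IV sums were 5218 FPKM in FLAG, 3426 in FLAG-CACUL1 and 3676 in sh-Luc, whereas complex V sums were 4225, 4580 and 4996 FPKM.

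**Figure D2:**
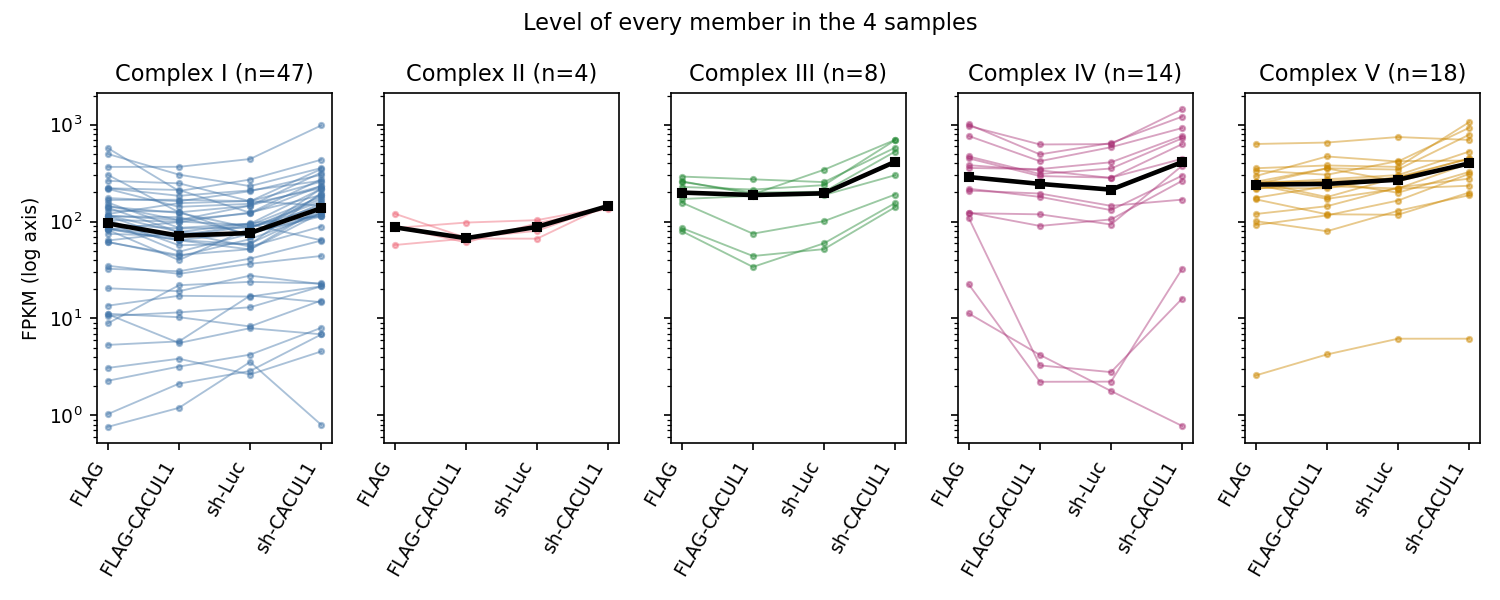
Each thin line joins the FPKM of 1 gene (log axis) in the 4 samples, by respiratory complex, and the black line joins the medians. Medians of every complex are highest in sh-CACUL1, and 3 complex IV genes lie far below the others in at least 1 sample.

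To see whether depletion of CACUL1 was accompanied by a change in these genes, sh-CACUL1 was compared with sh-Luc. Levels were higher in sh-CACUL1 for 82 of 91 members (90.1%; 31.4% of all genes and 36.9% of genes with a mean of at least 50 FPKM). A 2-fold rise was seen for 31 members and a 2-fold fall for 1, whereas 4.95% of all genes rose and 16.4% fell (21.3% changed either way). Among genes with a mean of at least 50 FPKM the background was 10.2% and 21.8%. The median log2 fold change of the members was 0.76, or 1.70-fold, against -0.30 for all genes. Median-of-ratios scaling of FPKM shifted all genes by 0.30 and gave a member median of 1.20 with 66 members risen, beside 9.08% of all genes risen and 7.78% fallen. Quantile normalization gave 0.95 and 43 members risen, beside 9.03% of all genes risen and 8.28% fallen. The distance between the members and all genes was 1.07, 1.20 and 0.96 on the log2 scale as deposited, under median-of-ratios scaling and under quantile normalization, respectively. All 10 adipocyte markers also rose in this comparison. Their part in the result was not tested.

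By complex, the median log2 fold change in sh-CACUL1 was 1.27 for complex III, 1.10 for complex IV, 0.68 for complex I, 0.68 for complex II and 0.65 for complex V. Risen members numbered 6 of 8 in complex III, 8 of 14 in complex IV, 13 of 47 in complex I, 1 of 4 in complex II and 3 of 18 in complex V. All 5 medians were positive under every alternative, including the comparison of sh-CACUL1 with FLAG. The 81 subunits taken alone had a median of 0.86, and the 8 Ndufaf assembly factors had 0.64. Members just past the 2-fold line were Ndufaf4 and Uqcr11 (both 1.02), and those just short of it were Ndufa9 (0.99) and Ndufa8 (0.96).

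**Figure D3:**
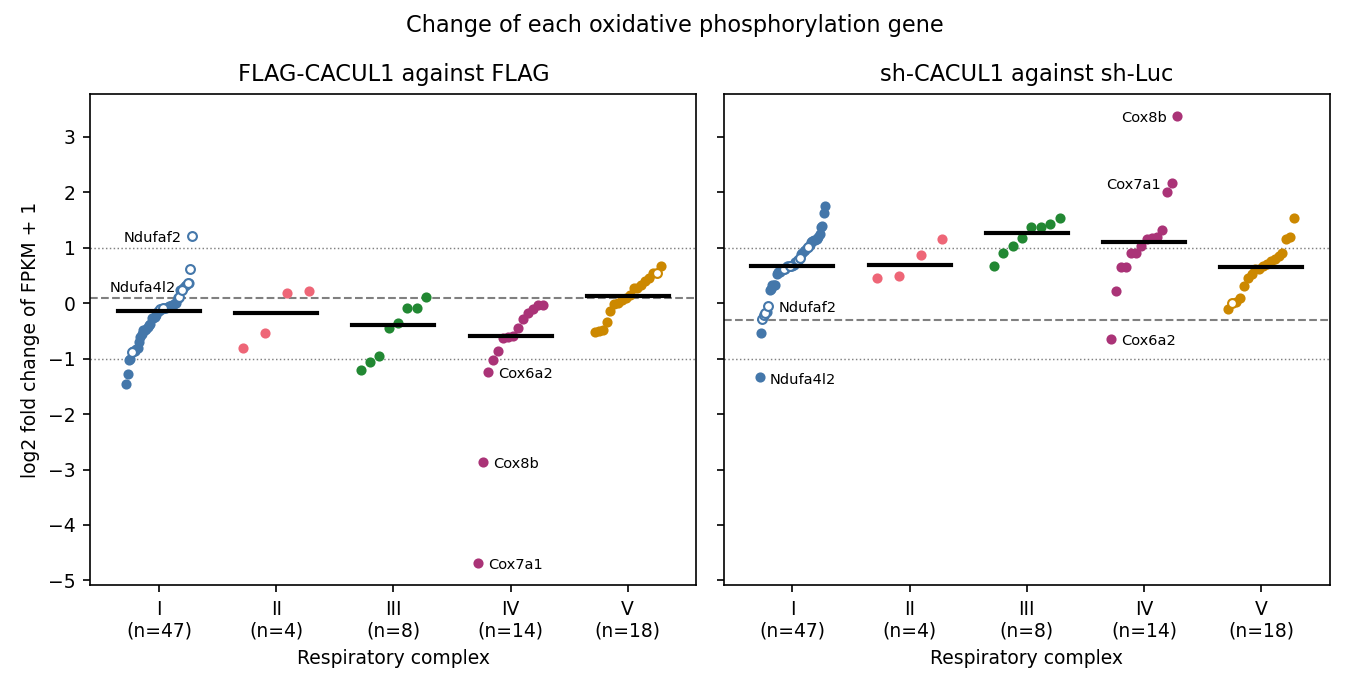
Points give the log2 fold change of FPKM + 1 for every member by complex in both comparisons, with open points for the assembly factors, the pseudogene and Dmac2l, black bars for medians, dotted lines at 2-fold and a dashed line at the median of all genes. In sh-CACUL1, 82 of 91 points lie above 0, and in FLAG-CACUL1 all 14 points of complex IV lie below 0.

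When FLAG-CACUL1 was compared with FLAG, the members moved less. Levels were lower in FLAG-CACUL1 for 64 of 91 members (41.3% of all genes and 43.5% of genes with a mean of at least 50 FPKM). A 2-fold fall was seen for 9 members and a 2-fold rise for 1, and the 10 members changed either way (11%) were no larger a share than the 14.7% of all genes. The background was 7.22% of all genes fallen and 7.52% risen, and 11% and 10.7% among genes with a mean of at least 50 FPKM. The median log2 fold change was -0.14 for the members and 0.09 for all genes. For the members it was -0.18 under quantile normalization and -0.30 under median-of-ratios scaling. Under the latter scaling 15 members had fallen, beside 9.08% of all genes fallen and 5.62% risen. All 10 adipocyte markers fell in this comparison, and their part was not tested.

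The fallen members were Cox7a1, Cox8b, Cox6a2 and Cox6a1 of complex IV, Ndufb9, Ndufb8 and Ndufa9 of complex I, and Uqcrfs1 and Uqcrc1 of complex III. Uqcrc1 (-1.06), Cox6a1 (-1.02) and Ndufa9 (-1.02) lay just past the line, and Ndufv1 (-0.999) and Uqcrc2 (-0.94) just short of it. The risen member was Ndufaf2, a complex I assembly factor, at 8.93 and 22.0 FPKM in FLAG and FLAG-CACUL1 and 23.9 and 23.0 FPKM in sh-Luc and sh-CACUL1. FLAG was thus the sample that stood apart for Ndufaf2, and against sh-Luc its log2 fold change in FLAG-CACUL1 was -0.11.

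The complexes had different medians in this comparison. Complex IV had a median log2 fold change of -0.60 with 0 of 14 members higher, complex III -0.40 with 1 of 8 higher, complex II -0.17 with 2 of 4 higher and complex I -0.14. Complex V had 11 of 18 members higher (background 58.7%) and a median of 0.12, with none changed 2-fold, and that median became -0.034 under median-of-ratios scaling. The results for complexes III and IV depended on the control. Against sh-Luc, the complex IV median in FLAG-CACUL1 was 0.026 with 7 of 14 members higher and 0 changed 2-fold. The complex III median against sh-Luc was -0.19, beside -0.10 for all genes, with 1 of 8 members higher and 0 changed 2-fold. The FLAG control itself had 13 of 14 complex IV members above sh-Luc (median 0.57), and 15 of 18 complex V members below it (median -0.32). Over all genes, 37.5% were above sh-Luc in FLAG, with a median of -0.18.

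The comparison with the other control gave a different picture for the 2 conditions. In sh-CACUL1, 80 of 91 members were above FLAG (background 44.5%), with a median of 0.67 (all genes -0.06). Against FLAG, 26 rose and 2 fell (background 22.9% changed either way). In FLAG-CACUL1, 31 of 91 members were above sh-Luc (background 39.9%), with a median of -0.15 (all genes -0.10). Against sh-Luc, 3 changed 2-fold, all lower (background 9.91%). Between the controls, FLAG was above sh-Luc for 49 of 91 members (background 37.5%), with a median of 0.12 (all genes -0.18). In FLAG, 6 members were 2-fold higher and 4 lower (background 21%). The summed level of adipocyte markers was 8479 FPKM in FLAG and 1689 in sh-Luc, while that of the members was 16960 and 14847 FPKM.

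Both comparisons use a control of their own, and their directions can be set side by side. Lower in FLAG-CACUL1 and higher in sh-CACUL1 were 60 of 91 members (background 16.1%), and higher in both were 22 (background 15.3%). Another 5 were higher and then lower (5687 of all 13104 genes), and 4 were lower in both (3308 of 13104). Of the 22, 10 belonged to complex V. A 2-fold fall followed by a 2-fold rise was found for 4 members, Cox7a1, Cox8b, Ndufb8 and Uqcrfs1 (background 1.69%), and no member changed 2-fold in both comparisons in any other way.

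In complex I, Ndufv2, a core subunit which carries an iron-sulfur centre, was at 61.4 and 45.2 FPKM in FLAG and FLAG-CACUL1 and 51.9 and 138 FPKM in sh-Luc and sh-CACUL1, and rose in sh-CACUL1 (log2 fold change 1.39). Ndufs8, another iron-sulfur core subunit, was at 84.8, 71.5, 94.0 and 64.2 FPKM, and was an exception in being lowest in sh-CACUL1, where 36 of the 47 members of complex I were highest.

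Among the accessory subunits of complex I, Ndufc2, a membrane arm subunit, was at 114 and 64.5 FPKM in FLAG and FLAG-CACUL1 and 58.2 and 198 FPKM in sh-Luc and sh-CACUL1, with the largest rise of the complex (1.75). Ndufb9 was at 573, 207, 272 and 435 FPKM and had the largest fall of the complex in FLAG-CACUL1 (-1.47). FLAG was its highest sample, and in sh-CACUL1 it was 0.68 above sh-Luc, short of 2-fold. Ndufb8, also of the membrane arm, was at 304, 125, 146 and 321 FPKM, so that FLAG and sh-CACUL1 were alike and lay above both other samples (-1.28 and 1.13). Ndufv3, an accessory subunit of the NADH-oxidizing tip, had a similar preference for FLAG, at 499, 305, 232 and 357 FPKM. Ndufa12, which sits close to that tip, did not follow the others in either comparison, at 120, 155, 163 and 146 FPKM (0.37 and -0.16). The Ndufa12 transcripts share 59.0% of their 31-base stretches with other genes, so its value is uncertain. The same limit holds for the other members that share at least 50% of these stretches, namely Atp5g2, Atp5l (69.6%), Atp5h (60.8%), Cox7c (55.7%) and Uqcrb (54.3%), which also enter the counts and medians. The pseudogene Ndufs5-ps was at 5.34, 5.80, 17.2 and 14.8 FPKM, against 143, 123, 86.4 and 145 FPKM for Ndufs5. Ndufs5 shares 47.3% of its 31-base stretches with other genes, and Ndufs5-ps had no sequence to check, so both levels are uncertain.

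The 8 Ndufaf assembly factors had mean levels between 3.22 and 22.5 FPKM. Their median in FLAG, for example, was 9.77 FPKM, against 145.8 FPKM for the 81 subunits, although a few subunits such as Ndufa11 and Cox6a2 also had means below 22.5 FPKM. The median of these 8 factors was 0.18 for FLAG-CACUL1 against FLAG and 0.64 for sh-CACUL1 against sh-Luc, on the log2 scale. Ndufaf4 was at 1.03, 2.13, 2.87 and 6.84 FPKM and rose in sh-CACUL1. FLAG had the lowest level of the 4 samples for 4 of these 8 genes.

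Complex II, succinate dehydrogenase, also works in the citric acid cycle. Its flavoprotein Sdha was at 88.6 and 61.0 FPKM in FLAG and FLAG-CACUL1 and 96.2 and 136 FPKM in sh-Luc and sh-CACUL1, and its iron-sulfur protein Sdhb at 121, 68.0, 80.3 and 148 FPKM. Both catalytic genes were thus lower in FLAG-CACUL1 (-0.53 and -0.82) and higher in sh-CACUL1 (0.49 and 0.87), without reaching 2-fold. The membrane anchors were higher in both conditions, but in FLAG-CACUL1 by only 0.18 (Sdhc) and 0.22 (Sdhd), beside 0.09 for all genes. Under median-of-ratios scaling these became 0.029 and 0.064. Against sh-Luc, FLAG-CACUL1 gave -0.083 and 0.004 for the anchors, and -0.65 and -0.24 for Sdha and Sdhb. Sdhc was at 86.0, 97.7, 104 and 142 FPKM, and Sdhd at 57.4, 66.8, 66.7 and 149 FPKM, of which Sdhd in sh-CACUL1 rose (1.15).

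In complex III, Uqcrfs1, the Rieske iron-sulfur protein, was at 79.7 and 34.1 FPKM in FLAG and FLAG-CACUL1. Its levels in sh-Luc and sh-CACUL1 were 59.7 and 155 FPKM. On the FPKM scale it fell 2.34-fold in FLAG-CACUL1 and rose 2.60-fold in sh-CACUL1. The core proteins had the same order of samples. Uqcrc1 was at 157, 75.1, 101 and 190 FPKM and Uqcrc2 at 85.9, 44.2, 52.0 and 141 FPKM. These 3 long subunits had a median of -1.06 in FLAG-CACUL1, set against 1.37 in sh-CACUL1. The 5 small subunits (Uqcrb, Uqcrh, Uqcrq, Uqcr10 and Uqcr11) had -0.09 in FLAG-CACUL1, with 1 of 5 higher, and 1.18 in sh-CACUL1, with 4 of 5 risen. Uqcr10, for example, was at 228, 214, 238 and 693 FPKM, so that sh-CACUL1 alone stood apart. Against sh-Luc, FLAG-CACUL1 had a median of -0.42 for the 3 long subunits and -0.03 for the 5 small ones, with 0 changed 2-fold. Against FLAG, sh-CACUL1 had 0.71 for the long subunits, with 0 risen, and 1.04 for the small ones, with 3 risen. This grouping of subunits was made after the values were known.

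Cytochrome c1, a catalytic subunit of complex III, and cytochrome c, the carrier between complexes III and IV, were outside the symbol rule. Cycs was at 51.8, 30.7, 39.2 and 154 FPKM and Cyc1 at 144, 72.0, 119 and 244 FPKM. Both rose in sh-CACUL1 (1.95 and 1.03) and were lower in FLAG-CACUL1 without reaching 2-fold (-0.74 and -0.99).

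Complex IV held the largest differences, and these lay in the tissue-restricted paralogs. Cox7a1 (NM_009944), the heart and muscle form of subunit 7A, was at 109 and 3.28 FPKM in FLAG and FLAG-CACUL1 and 2.80 and 16.0 FPKM in sh-Luc and sh-CACUL1. It was abundant in FLAG alone, and sh-CACUL1 was intermediate between FLAG and the low pair. On the FPKM scale it fell 33.3-fold in FLAG-CACUL1 (95% Clopper-Pearson interval 17.9 to 70.0) and rose 5.74-fold in sh-CACUL1 (3.26 to 10.7), intervals that rest on about 353, 10, 16 and 59 estimated fragments and cover counting error only. Against the other control the directions did not hold, as FLAG-CACUL1 and sh-Luc differed by 0.17 and sh-CACUL1 lay below FLAG with a log2 fold change of -2.69. The widespread form Cox7a2 was at 124, 90.3, 105 and 264 FPKM. Cox7a1 therefore made up 46.8% of the summed FPKM of Cox7a1 and Cox7a2 in FLAG but only 3.50% in FLAG-CACUL1, with 2.59% and 5.74% in the hairpin lines sh-Luc and sh-CACUL1.

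Cox8b (NM_007751), the heart and muscle form of subunit 8, was at 22.5 and 2.22 FPKM in FLAG and FLAG-CACUL1 and 2.23 and 32.6 FPKM in sh-Luc and sh-CACUL1. FLAG and sh-CACUL1 were both about 10-fold or more above the other samples. On the FPKM scale, Cox8b fell 10.1-fold in FLAG-CACUL1 (4.39 to 28.6) and rose 14.6-fold in sh-CACUL1 (7.83 to 30.2). These intervals rest on about 61, 6, 11 and 102 estimated fragments. Its log2 fold changes were -2.87 and 3.38. Cox8a, the widespread form, was at 971, 626, 631 and 1440 FPKM, so that Cox8b made up 2.26%, 0.354%, 0.352% and 2.21% of the pair. Unlike Cox7a1, Cox8b was higher in sh-CACUL1 than in FLAG, by 0.52 on the log2 scale.

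Cox6a2, the muscle form of subunit 6A, did not follow the other paralogs. It was at 11.3 and 4.21 FPKM in FLAG and FLAG-CACUL1 and 1.79 and 0.778 FPKM in sh-Luc and sh-CACUL1. On the FPKM scale it fell 2.68-fold in FLAG-CACUL1 (1.76 to 4.18), with a log2 fold change of -1.24. In sh-CACUL1 its log2 fold change was -0.65, on about 23 and 6 estimated fragments, with a ratio to sh-Luc of 0.436 (0.145 to 1.1), so a difference was not detectable at this depth. Cox6a1 was at 1005, 494, 648 and 1212 FPKM, and Cox6a2 never exceeded 1.11% of the pair. With FLAG left aside, Cox6a2 was higher in FLAG-CACUL1 than in sh-Luc (0.90), the opposite of its direction against FLAG.

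**Figure D4:**
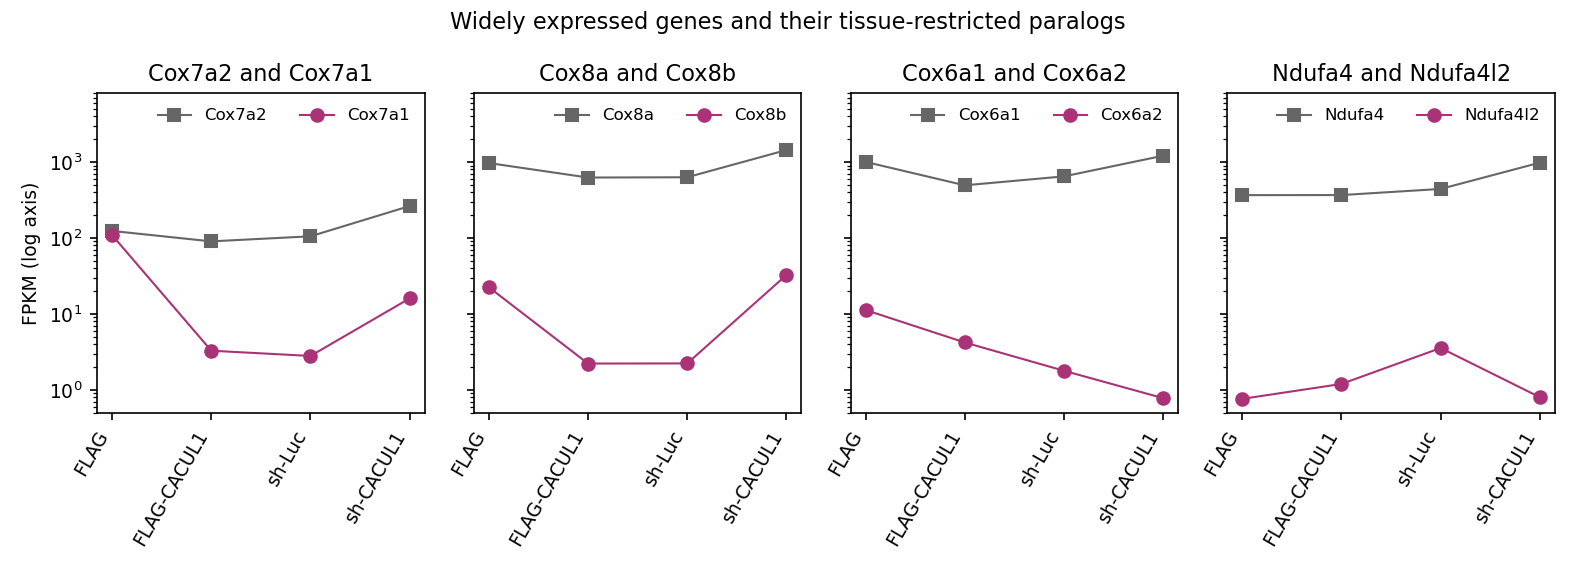
Points give FPKM (log axis) in the 4 samples for widely expressed genes (squares) and their tissue-restricted paralogs (circles), and lines join the same gene. Cox7a1 and Cox8b are low in FLAG-CACUL1 and sh-Luc, Cox6a2 is lowest in sh-CACUL1, and Ndufa4l2 is highest in sh-Luc.

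Ndufa4 carries a complex I symbol but its product is now assigned to complex IV. It was at 367 and 368 FPKM in FLAG and FLAG-CACUL1 and 443 and 983 FPKM in sh-Luc and sh-CACUL1, and rose in sh-CACUL1 (1.15). Its hypoxia-inducible paralog Ndufa4l2 was at 0.761, 1.20, 3.56 and 0.80 FPKM and was the member that fell in sh-CACUL1, 4.45-fold on the FPKM scale (2.28 to 9.69) and by 1.34 on the log2(FPKM + 1) scale. Only sh-Luc, the deepest sample, stood above the others, with about 68 estimated fragments against 9, 14 and 10, and sh-CACUL1 and FLAG differed by 0.031 on the log2 scale.

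The 10 widespread complex IV subunits were all lower in FLAG-CACUL1 (median -0.52, 1 fallen) and all higher in sh-CACUL1 (median 1.10, 6 risen). Cox7b had the largest rise among them and was at 122 and 119 FPKM in FLAG and FLAG-CACUL1 and 93.4 and 377 FPKM in sh-Luc and sh-CACUL1 (-0.04 and 2.00). Cox4i1, through which ATP inhibits the oxidase, was at 765, 420, 586 and 924 FPKM (-0.86 and 0.66). Cox6b1, which faces the intermembrane space, was at 382, 338, 282 and 630 FPKM, and Cox6c at 358, 349, 410 and 766 FPKM. For Cox7b, Cox6b1 and Cox6c the FLAG-CACUL1 sample was within 0.18 of FLAG, while sh-CACUL1 was above all other samples. Cox7a2l, which helps to join complex III and complex IV into supercomplexes and was counted here with the subunits by its symbol, differed little, at 209, 195, 146 and 169 FPKM (-0.10 and 0.21).

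In complex V, the 5 accessory subunits of the membrane part (Atp5j2, Atp5k, Atp5l, Atp5md and Atp5mpl) were higher in FLAG-CACUL1 (median 0.40 against FLAG) and again in sh-CACUL1 (median 0.86 against sh-Luc, with Atp5k and Atp5l risen). Atp5k, the e subunit, was at 295 and 470 FPKM in FLAG and FLAG-CACUL1 and 417 and 929 FPKM in sh-Luc and sh-CACUL1 (0.67 and 1.15). FLAG held the lowest level of all 5 genes. Relative to sh-Luc, the 5 subunits in FLAG-CACUL1 had a median of 0.04, with 3 of 5 higher. Their annotated transcripts are 362 to 955 bases long, and among other genes with transcripts under 600 bases the medians of the comparisons were 0.26 (FLAG-CACUL1) and 0.23 (sh-CACUL1). The part of transcript length in these values was not tested.

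The F1 head, where ATP is made, and the peripheral stalk, which holds it in place, varied less against their own controls. The 5 F1 genes had medians of -0.01 (FLAG-CACUL1) and 0.62 (sh-CACUL1), and the 4 stalk genes had -0.18 and 0.49, with 0 genes of either part changed 2-fold. Against sh-Luc, the stalk genes in FLAG-CACUL1 had a median of -0.66 with 0 of 4 higher, and the F1 genes 0.02 with 3 of 5 higher. Against FLAG, the sh-CACUL1 medians were 0.94 for the stalk, with 1 risen, and 0.23 for F1. Atp5b was at 633, 655, 746 and 697 FPKM, and thus was the 1 complex V member lower in sh-CACUL1 than in sh-Luc (-0.10). Atp5o, a stalk subunit, was at 258, 179, 287 and 394 FPKM (-0.52 and 0.45). Dmac2l was at 2.58, 4.25, 6.19 and 6.19 FPKM.

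The c ring of the membrane part turns with the proton flow, and Atp5g1, Atp5g2 and Atp5g3 encode the same mature c protein with different import signals. Atp5g1 was at 92.3 and 116 FPKM in FLAG and FLAG-CACUL1 and 165 and 311 FPKM in sh-Luc and sh-CACUL1. Atp5g2 was at 336, 305, 421 and 427 FPKM and differed between sh-Luc and sh-CACUL1 by 0.02 on the log2 scale. Atp5g3 (NM_001301721) was at 356, 380, 367 and 1061 FPKM, alike in 3 samples and, on the FPKM scale, 2.89-fold above sh-Luc in sh-CACUL1. Atp5g3 accordingly made up 45.4% and 47.5% of the summed FPKM of the 3 genes in FLAG and FLAG-CACUL1 and 38.5% and 59.0% in sh-Luc and sh-CACUL1, while Atp5g2 made up 42.9%, 38.1%, 44.2% and 23.7%. Transcripts of Atp5g2 share 87.7% of their 31-base stretches with transcripts of other genes, so its level and share are uncertain. The Atp5g3 promoter printed above held the ERR match, and the Atp5g2 window held an NRF1 match beginning 42 bases before the start.

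**Figure D5:**
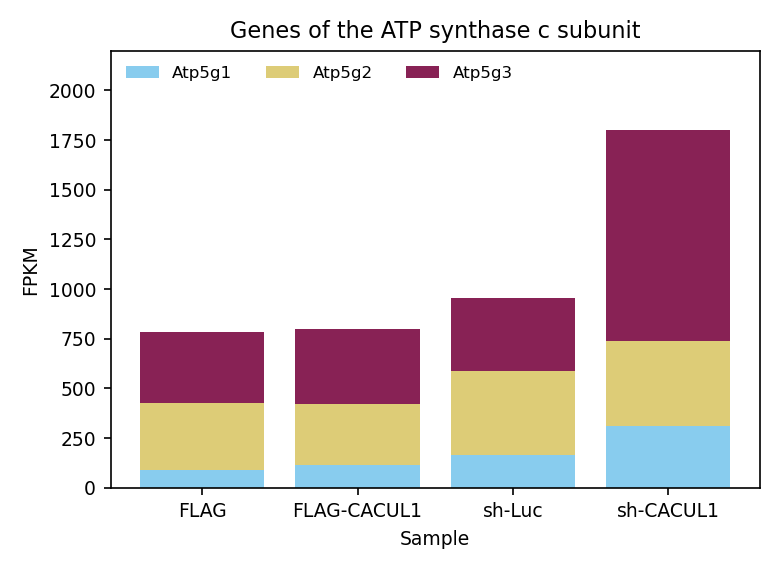
Bars give the FPKM of Atp5g1, Atp5g2 and Atp5g3, stacked, in each sample. The Atp5g3 segment is between 356 and 380 FPKM in 3 samples and 1061 FPKM in sh-CACUL1.

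Other genes of the pathway were taken from lists, and their counts stand beside 31.4% of all genes higher, 4.95% risen and 16.4% fallen in sh-CACUL1 and 58.7%, 7.52% and 7.22% in FLAG-CACUL1. Of 35 further assembly factors, 22 were higher in sh-CACUL1 (median 0.17), of which 5 rose (Cox14, Cox16, Uqcc1, Foxred1 and Atpaf2) and 0 fell, and 19 were higher in FLAG-CACUL1 (median 0.01), with Sco2 and Sdhaf1 risen and Atpaf2 fallen. Of the 15 regulators of mitochondrial gene expression, 6 were higher in sh-CACUL1 (median -0.59) and 8 in FLAG-CACUL1, with 1 risen and 1 fallen in each. Among them Esrra, the estrogen-related receptor alpha, was at 20.4 and 17.6 FPKM in FLAG and FLAG-CACUL1 and 12.2 and 25.6 FPKM in sh-Luc and sh-CACUL1 and rose in sh-CACUL1 (1.02), while the coactivator gene Pprc1, at 3.64, 11.9, 14.7 and 6.40 FPKM, moved the other way in both comparisons (1.48 and -1.09). The coactivator gene Ppargc1b was at 6.11, 0.653, 1.34 and 2.67 FPKM and fell in FLAG-CACUL1 (-2.10). Ppargc1a, at 0.995, 2.29, 4.14 and 1.57 FPKM, was higher in FLAG-CACUL1 and lower in sh-CACUL1 (0.72 and -0.996), short of 2-fold. Nrf1, the gene of NRF1, was at 7.86, 5.54, 7.79 and 4.70 FPKM and lower in both comparisons (-0.44 and -0.62). None of the 13 subunits encoded by mitochondrial DNA was analysed here.

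Ribosomal proteins served as a comparison of other large complexes made of small proteins. The 78 mitochondrial ribosomal proteins had a median of 0.22 in sh-CACUL1 with 6 risen and -0.04 in FLAG-CACUL1, and the 84 cytosolic ribosomal proteins had 0.16 with 1 risen and 0.04. The oxidative phosphorylation members, with 0.76 and 31 risen in sh-CACUL1, lay above both groups, a difference that has no replicate check. The median transcript length of the members was 778 bases, against 2842 bases for all genes, so both were also compared by length class. In sh-CACUL1, medians were 0.88 for the 26 members and 0.23 for the 186 other genes under 600 bases, 0.67 and 0.01 from 600 to under 1000 bases, 0.80 and -0.18 from 1000 to under 2000 bases, and 0.66 and -0.40 at 2000 bases or more. The members thus lay above the other genes in each of the 4 classes. In FLAG-CACUL1, medians over the same classes were -0.07, -0.21, -0.39 and -0.04 for the members and 0.26, 0.14, 0.09 and 0.09 for the other genes, so that the members lay below.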

How the data were processed

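RNA-seq of 4 stable 3T3-L1 lines was analysed, with 1 sample per group. The authors deposited FPKM values, made by a sequencing company, for 13110 rows of RefSeq transcripts per sample, each above 0 in all samples. The labels name mm10 (GRCm38) as the genome build. The aligner, the FPKM program, filters and scaling between samples are not given in the sources used here. No read counts were among the files used, so no count test was possible.

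Rows were given symbols from the RefSeq table of GRCm38.p6 (12998 rows) and then GENCODE M21 (65 rows), 47 rows had none, and the 12 rows that shared symbols were summed. Log2 fold changes used a pseudocount of 1, which makes changes of weakly expressed genes look smaller, and a 2-fold cut-off. The members and lists were chosen with earlier results of these data known.

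Depth was estimated from the spacing of low FPKM values in rows of transcripts of at least 800 bases. This spacing was clearest when 160 to 190 bases were subtracted from the transcript length, so FPKM of short transcripts, such as many members, appear to be raised by a length correction. Levels are therefore compared between genes with that limit. Intervals are 95% Clopper-Pearson intervals on estimated fragments and cover counting error only.

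By rule, 32 members were named: the Sdh genes, in each complex the 2 most expressed members and those with the largest rise and fall in each comparison, members changed 2-fold in both, and paralog families. Other members were named after their values were seen, as was the grouping into functional parts of a complex. Promoter sequences are from RefSeq and were matched by symbol. The values of the complex I core subunits as a group are not reported here. The scripts were tested on simulated data. Python 3.11.15, numpy 2.4.6, pandas 2.3.3, scipy 1.17.1 and matplotlib 3.10.9 were used.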

Additional observations from a re-analysis of the deposited data

How the results depend on the processing

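No paired analysis was possible because each group has 1 sample and the groups share no more than 1 replicate number. For the same reason no sample could be left out. The cause of each change below was not tested unless the alternative itself sets it, as a cut-off or a smaller set does. In FLAG-CACUL1, the 1 risen member became 2 without a pseudocount, 3 at 1.5-fold, and 0 at 3-fold, against sh-Luc, among subunits only and among members with a mean of at least 50 FPKM (the last alternative was chosen after seeing the data). The count of fallen members, 9 in the main setting, became 15 under median-of-ratios scaling, 3 against sh-Luc, 23 at 1.5-fold and 2 at 3-fold. The 3 below sh-Luc were Ndufs5-ps (-1.42), Ndufa9 (-1.08) and Ndufa4l2 (-1.05), of which Ndufa9 alone was among the 9. Against sh-Luc the complex IV median was 0.026 and the complex V median -0.16, and under median-of-ratios scaling the complex V median was -0.034. In sh-CACUL1, the 31 risen members became 66 under median-of-ratios scaling, 65 at 1.5-fold and 5 at 3-fold. The share of all genes at 1.5-fold and 3-fold was not computed. The counts at these cut-offs, in both comparisons, therefore show only how they depend on the cut-off. The count of fallen members, 1 in the main setting, became 2 with a pseudocount of 0.1, without one, against FLAG and at 1.5-fold. It became 0 at 3-fold, with at least 1 FPKM in all 4 samples and with a mean of at least 50 FPKM. The 2 below FLAG were Cox6a2 (-2.79) and Cox7a1 (-2.69), not Ndufa4l2. Medians in sh-CACUL1 became 0.95 (quantile) and 1.20 (median-of-ratios) for all members, 0.94, 1.12 and, against FLAG, 0.47 for complex I, 1.72 (median-of-ratios) for complex III, 0.48 (against FLAG) for complex IV, and 1.09 (median-of-ratios) and 1.00 (against FLAG) for complex V. Of the called members, Cox7a1 (0.17), Cox6a2 (0.90) and Ndufaf2 (-0.11) in FLAG-CACUL1, and Cox7a1 (-2.69) and Ndufa4l2 (0.031) in sh-CACUL1, changed direction against the other control. Of the 32 named members, 18 kept their direction in FLAG-CACUL1 and 26 in sh-CACUL1 against the other control. Under median-of-ratios scaling 28 and 30 kept it, and under quantile normalization 32 and 31. Cox6a2, Cox8b, Ndufa4l2 and, outside FLAG, Cox7a1 are limited by few fragments.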

Other observations

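Further orders of the samples were noticed after the values were seen. FLAG held the lowest level of 11 of the 18 complex V members but of 0 of the 14 complex IV members, while FLAG-CACUL1 held the lowest level of 5 and 7, and of 6 of the 8 complex III members. Among the 17 members that were not highest in sh-CACUL1, Ndufb9, Ndufv3, Ndufs7, Ndufa3, Cox5b, Cox7a2l, Atp5d, Cox7a1, Cox6a2 and Ndufaf3 were highest in FLAG. Ndufs7, a core subunit of complex I, was at 139 and 78.0 FPKM in FLAG and FLAG-CACUL1 and 96.2 and 114 FPKM in sh-Luc and sh-CACUL1.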
